A study of Equus caballus with 4 samples.

Results

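The growth factor FGF7, the receptors FGFR2 and MET and the signalling inhibitor SPRED1 were examined in equine sarcoid, a fibroblastic skin tumour of horses that invades locally. They are 4 of the 949 genes that could be given a symbol on the array, and every probe designed on a RefSeq transcript of one of them was taken. There were 21 such probes of 43603, all of which passed the filter on dim probes, and 12 belong to FGFR2 (NM_001163863), 5 to FGF7 (NM_001163883), 3 to MET (NM_001114147) and 1 to SPRED1 (XM_001503617). The 4 genes were chosen with their sarcoid over skin ratios on these same arrays already known, so those ratios are given as a description, without a test.

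FGF7, also called keratinocyte growth factor, is secreted by fibroblasts and other mesenchymal cells and acts on nearby epithelial cells through a splice form of FGFR2 that epithelia make, while mesenchymal cells mostly make the alternative form. MET is the receptor for hepatocyte growth factor, another product of mesenchymal cells that acts mainly on epithelium. Both receptors are tyrosine kinases that signal through RAS and the MAP kinases, and SPRED1 dampens that route by bringing the RAS inactivator neurofibromin to the membrane.

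The tested tissue was sarcoid from 4 horses, and it was set against tumour-distant skin of the same 4 animals. No genotype, breed, age or treatment of the horses is given in the labels used here, and each pair of tissues was 1 two-colour array with sarcoid RNA in Cy3 and skin RNA in Cy5. No array had the dyes exchanged, so any dye effect specific to a probe is part of each ratio and cannot be told apart from the tissue. The free-text descriptions of horses 2, 3 and 4 name embryonic stem cells, against the tissue, source and animal labels, which were used; values are given for each horse, so horse 1 can be read alone.

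The share of spots well above background ran from 67.2% to 78.4% in the sarcoid channels and from 74.8% to 80.7% in the skin channels, and 0 were saturated. Log2 ratios of sarcoid over skin correlated across the 19604 targets tested (a target is a gene symbol or, where there is none, an accession) with r between 0.621 and 0.743 for pairs of horses. Intensities below were corrected for local background, with a constant of 50 added, and normalized within and between arrays, so they compare tissues and horses within a probe and not one probe with another. Only part of the listed tissue markers could be measured. Of 25 fibroblast markers 7 were, and of 37 keratinocyte and gland markers 10 were on the array and 5 were measured. All 7 measured fibroblast markers were higher in the sarcoids, with a summed intensity of 894562 to 1269500 in sarcoids and 151819 to 250729 in skin. Of 5 measured keratinocyte and gland markers 4 were lower and 1 did not pass, with a summed intensity of 5082 to 9133 in sarcoids and 336900 to 507520 in skin. Passing means a limma adjusted p under 0.05, which 5.85% of all targets reached upwards and 9.9% downwards. Of 20 measured markers of other cell types, VCAM1 (activated endothelium) and CSF1R (macrophages) passed as higher, PMEL and TYRP1 (melanocytes) and MB (muscle) passed as lower, and 15 did not pass. None of these 5 calls remained with the background model fitted to all spots, where the limma adjusted p was 0.0706 for VCAM1, 0.265 for CSF1R, 0.258 for PMEL, 0.317 for TYRP1 and 0.32 for MB. The call of MB was also lost without horse 1 (0.0855), horse 2 (0.0606) or horse 3 (0.0659), and that of CSF1R without horse 2 (0.0674) or horse 3 (0.0502). With the model fitted to all spots, 3 of all 32 measured cell type markers were higher and 2 lower, against 9 and 7. Of all 19604 targets 93 were then higher and 147 lower, against 1146 and 1941 as reported. The summed intensity of the 6 leukocyte markers was 7676 to 22417 in sarcoids and 4037 to 9357 in skin, and that of the 5 endothelial markers 5976 to 31473 in sarcoids and 3340 to 8018 in skin. Such sums follow their brightest probes, LATH among keratinocyte and gland markers and CD14 among leukocyte markers. CD14 did not pass (1.14 ± 1.12, limma adjusted p = 0.141) and stood at -0.40 in horse 3. Besides VCAM1, the other 4 endothelial markers did not pass. Of these, PECAM1 was at 0.41 ± 1.71 and VWF at -0.06 ± 1.45. Both were highest in horse 2 (2.29 and 1.59) and lowest in horse 3 (-1.84 and -1.95), so the endothelial sums show no shared direction. The part of these markers in the results below was not tested, and in bulk tissue fewer cells of a type cannot be told apart from less RNA per cell.

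FGF7 was higher in the sarcoid than in the skin of each of the 4 horses, on all 5 of its probes. Its brightest probe read 1617, 2941, 1051 and 768 in the sarcoids of horses 1 to 4, against 350, 804, 714 and 308 in their skin. The ligand was therefore above its own animal's skin everywhere, while the groups overlapped, since the skin of horse 2 lay above the sarcoid of horse 4. The log2 ratios were 2.21, 1.87, 0.56 and 1.32, a mean of 1.49 ± 0.72 (SD, n = 4), or 2.81-fold. Horse 3 had the smallest difference, 1.47-fold, and horse 1 the largest, 4.63-fold. With the background model fitted to all spots, the log2 ratio of horse 3 was only 0.20. The mean lay above that of 98.1% of all targets.

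The skin itself differed in FGF7 between animals. The SD of the log2 level was 0.84 among the sarcoids and 0.70 among the skins, and the skin SD exceeded that of 95.7% of targets. The 5 probes gave nearly the same answer, with means from 1.39 to 1.58. In horse 3 they lay between 0.48 and 0.61. Only in horse 4 did a probe stand off, with A_69_P003946 at 2.03 and the run A_69_P005176 to A_69_P005179 between 1.31 and 1.45. On 3 of the 5 probes the 4 sarcoids lay above all 4 skins, which 8.89% of all probes showed. Without normalization between the dyes the mean was 0.87, with horse 3 at 0.13 and horse 4 at 0.04.

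**Figure D1:**
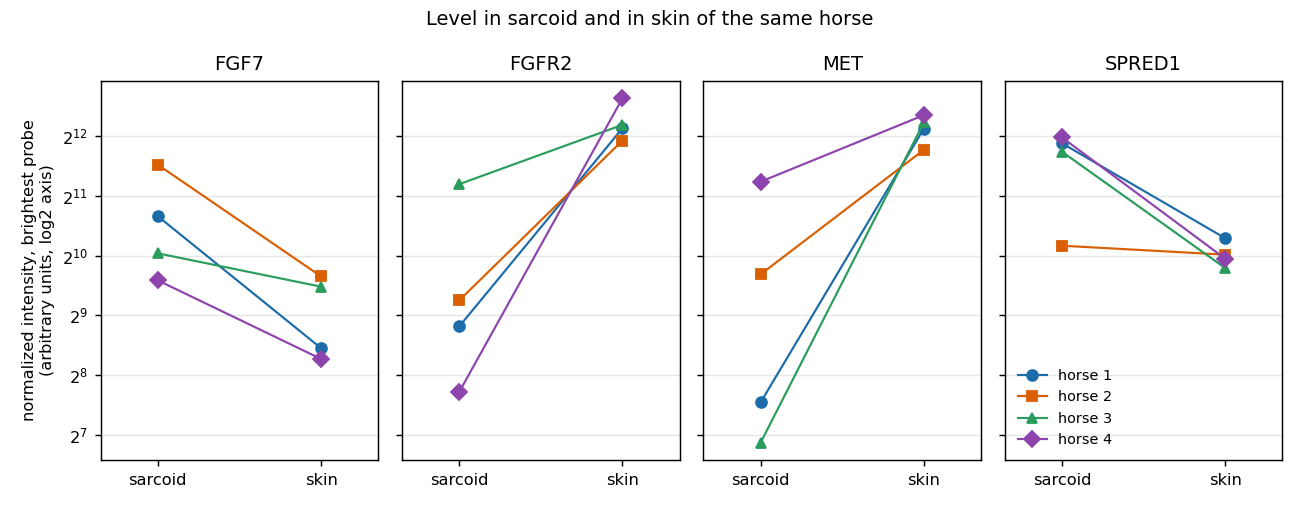
Normalized intensity (arbitrary units, log2 axis) of the brightest probe of each gene in the sarcoid (left) and the skin (right), with a line joining the 2 tissues of a horse. FGFR2 and MET sit close together in the 4 skins and far apart in the 4 sarcoids, where horse 3 reads 2345 for FGFR2 and 117 for MET and horse 4 reads 210.2 and 2414.

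FGFR2, the receptor of FGF7 on epithelial cells, was lower in the sarcoid of every horse by its brightest probe. A_69_P105596 read 450, 609, 2345 and 210.2 in the sarcoids of horses 1 to 4, against 4490, 3893, 4669 and 6358 in their skin. The groups did not overlap, and the highest sarcoid was that of horse 3. The log2 ratios were -3.32, -2.68, -0.99 and -4.92, a mean of -2.98 ± 1.62 (SD, n = 4). That is 30.3-fold lower in the sarcoid of horse 4 and 1.99-fold lower in that of horse 3. The second bright probe, A_69_P105597, followed it closely at -3.04, -2.52, -0.98 and -4.40.

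MET, the receptor of hepatocyte growth factor, was also lower in the sarcoid of every horse. Its brightest probe, A_69_P001421, read 186, 824, 117 and 2414 in the sarcoids of horses 1 to 4, against 4473, 3496, 4807 and 5227 in their skin. The groups did not overlap, although the sarcoid of horse 4 came within 2.16-fold of its skin. The log2 ratios were -4.59, -2.09, -5.36 and -1.11, a mean of -3.29 ± 2.01 (SD, n = 4). Horse 3 had the deepest deficit, 41.2-fold. That value depends on the background model: fitted to all spots, outlier spots included, it put horse 3 at -1.76 and horse 1, at -4.58, became the lowest.

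FGFR2 and MET were thus the 2 of the 4 genes whose tissues did not overlap, both downwards, which 13.2% of all targets also showed; FGF7 and SPRED1 overlapped, and 8.08% of targets were free of overlap upwards. Their means lay above only 1.55% and 1.16% of all targets.

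The sarcoids that were lowest in the 2 receptors were not the same. By the brightest probe of each gene, horse 3 had the smallest FGFR2 deficit of the 4 and the deepest MET deficit. Horse 4 had the deepest FGFR2 deficit and the smallest MET deficit. FGFR2 read 2345 in the sarcoid of horse 3 and 210.2 in that of horse 4, and MET read 117 in horse 3 and 2414 in horse 4. Over 11 ways of processing that kept the within-array ratios of all 4 horses, some of which left these probes unchanged, MET was least reduced in horse 4 and FGFR2 least reduced in horse 3 in 11 of 11. FGFR2 was most reduced in horse 4 in 10 of 11, the exception being the mean over all its probes, and MET most reduced in horse 3 in 9 of 11. Apart from that mean, these ways read the same bright probe of each gene. In the dim FGFR2 run A_69_P005137 to A_69_P005140 the mean ratio was lowest in horse 1 (-0.84) and highest in horse 3 (-0.10). In the run A_69_P005181 to A_69_P005185 it was lowest in horse 1 (-1.24) and highest in horse 4 (-0.76). Agilent's processed signals put that last run lowest in horse 4 (-3.76). Only 4 of the 20 sarcoid spots of that run were well above background, so its order of horses is not read. With 4 horses no correlation between the receptors was computed.

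On the brightest probe of each receptor the horses differed more in their sarcoids than in their skins. MET ranged over 20.7-fold among the 4 sarcoids and 1.5-fold among the 4 skins, and FGFR2 over 11.2-fold among sarcoids and 1.63-fold among skins. The SD of the log2 ratio was larger for MET than for 99.3% of all targets and for FGFR2 than for 98.7%, against a median SD of 0.34 over all targets. With the mean over all probes, which takes in the dim ones, the SD was 0.34 for FGFR2 and 0.82 for MET. The SD of the sarcoid level alone exceeded that of 99.2% of targets for MET and 97.6% for FGFR2, while the skin SD exceeded 62.2% and 71.5%.

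The 5 measured markers of keratinocytes and glands differed in how much their ratios varied between horses. LATH, the surfactant protein latherin of horse sweat, had log2 ratios of -6.47, -6.61, -6.21 and -6.02 in horses 1 to 4. S100A7, an antimicrobial protein of keratinocytes, had -5.30, -4.67, -5.02 and -5.51. Their SDs were 0.26 and 0.36, and that of the keratin KRT15 was 0.11 around a mean of -5.12. The brightest probes of FGFR2 and MET had SDs of 1.62 and 2.01. The levels of S100A7 were less even than its ratio, at 1706, 416, 353 and 2255 in sarcoids and 67115, 10626, 11442 and 102922 in skin. LTF, lactoferrin, varied more, with ratios of -2.63, -1.80, -1.66 and -3.36 (SD 0.79), most reduced in horse 4 and least in horse 3 like FGFR2. Its levels did not follow FGFR2, at 188, 92.5, 99.2 and 2185 in sarcoids and 1165, 323, 314 and 22379 in skin. The sarcoid of horse 4 was thus the highest for LTF and the lowest for FGFR2. CA12, a carbonic anhydrase, did not pass at 0.06 ± 0.19 (limma adjusted p = 0.774), from dim spots at 77 to 91 in sarcoids and 74 to 87 in skin. On the fibroblast side the proteoglycan LUM stood at 5.77, 3.17, 4.48 and 3.55 and BGN at 3.98, 2.75, 2.85 and 2.67, both highest in horse 1, as was FGF7. VIM and DCN were also highest in horse 1, but SPARC was highest in horse 2 (3.74), and COL5A2 (2.44) and TBX15 (3.31) were highest in horse 3, where FGF7 was lowest. The differences between these spreads were not tested.

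**Figure D2:**
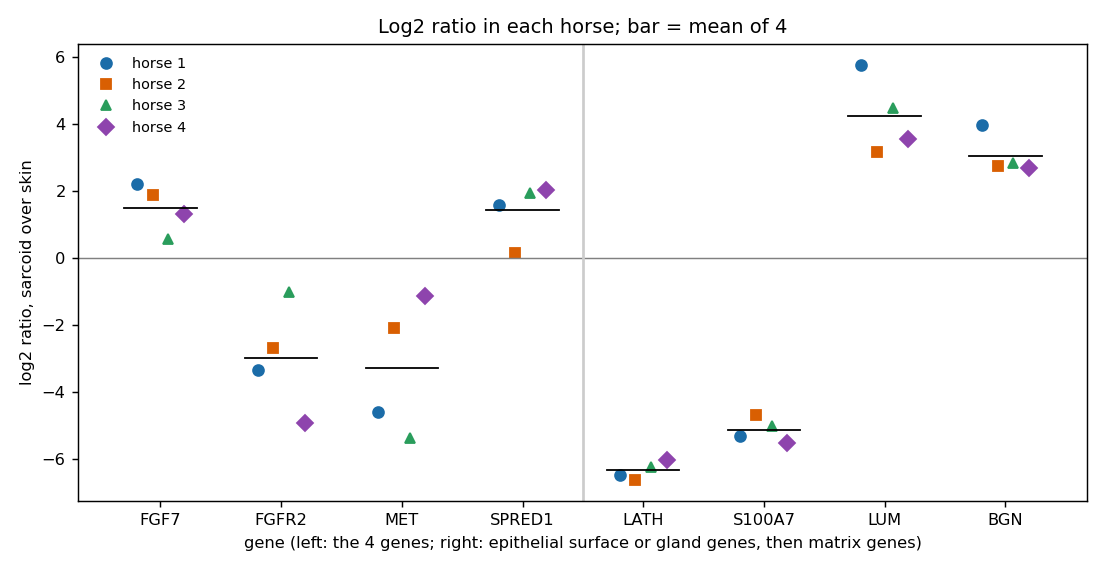
Log2 ratio of sarcoid over skin in each of the 4 horses (points) with the mean (bar), for FGF7, FGFR2, MET and SPRED1 on the left and the epithelial markers LATH and S100A7 and the matrix proteoglycans LUM and BGN on the right. By their brightest probes FGFR2 spans -4.92 to -0.99 and MET -5.36 to -1.11 with horses 3 and 4 at opposite ends. LATH stays between -6.61 and -6.02.

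The probes of FGFR2 did not all show the same difference. Of its 48 ratios (12 probes in 4 horses) 47 were below 0, and the probe means ran from -2.98 to -0.40. Probes numbered in a row in the array design behaved alike. The pair A_69_P105596 and A_69_P105597 had means of -2.98 and -2.73, the 5 probes A_69_P005181 to A_69_P005185 had means from -1.12 to -0.82, and the 4 probes A_69_P005137 to A_69_P005140 had means from -0.58 to -0.40, with the single probe A_69_P003696 at -0.43. Counted over all 12 probes, 28 of 48 spots were well above background in sarcoid and 48 of 48 in skin, and in the run A_69_P005181 to A_69_P005185 only 4 of 20 were in sarcoid. These sets were formed after their values were seen and carry no test.

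The added constant of 50 pulls the ratios of dim probes towards 0. Agilent's processed signals, which carry no such constant, gave the run A_69_P005181 to A_69_P005185 mean log2 ratios of -3.31, -2.70, -2.39 and -3.76 in horses 1 to 4. For the bright pair they gave -3.54, -2.73, -0.89 and -5.46. For the run A_69_P005137 to A_69_P005140 they gave -1.99, -1.17, 0.12 and -1.36. The sarcoid signal of the run A_69_P005181 to A_69_P005185 was mostly not well above background, so the size of its ratios is set by values near background and gives no rank against the bright pair. FGFR2 is known in other mammals to make epithelial and mesenchymal splice forms, and which exon each probe reads is not given in the sources used here. The position of the probes and their part in these differences were not tested.

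Of the 12 FGFR2 probes 9 had tissues that did not overlap, all lower in sarcoid, against 13.9% of all probes tested. Among the 9 were the 5 probes A_69_P005181 to A_69_P005185, which passed the filter on dim probes through skin alone. For such probes a lower sarcoid is partly set by the filter. The gene was also chosen on this ratio, so the count is a description only. A_69_P005184 and A_69_P005185 were not well above background in any sarcoid, so their differences are bounds: at least 1.93-fold and at least 1.76-fold lower in sarcoid. Averaging all 12 probes brought the gene to -1.07.

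The other probes of MET were dim as well, and they passed the filter through skin alone. A_69_P003381 had ratios of -1.13, -0.90, -1.43 and -0.87 in horses 1 to 4, and it was well above background in 2 of 4 sarcoids and in 4 of 4 skins. A_69_P003382 was not well above background in any sarcoid and was at least 2.12-fold lower there. All 12 ratios of MET were below 0, and with most sarcoid spots of the dim probes at background their order of horses is not read. On Agilent's processed signals A_69_P003381 and A_69_P003382 averaged -3.32 and -3.85, beside -3.71 for A_69_P001421, so the gap between the MET probes depended on the scale. Averaging the 3 probes put MET at -1.84.

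**Figure D3:**
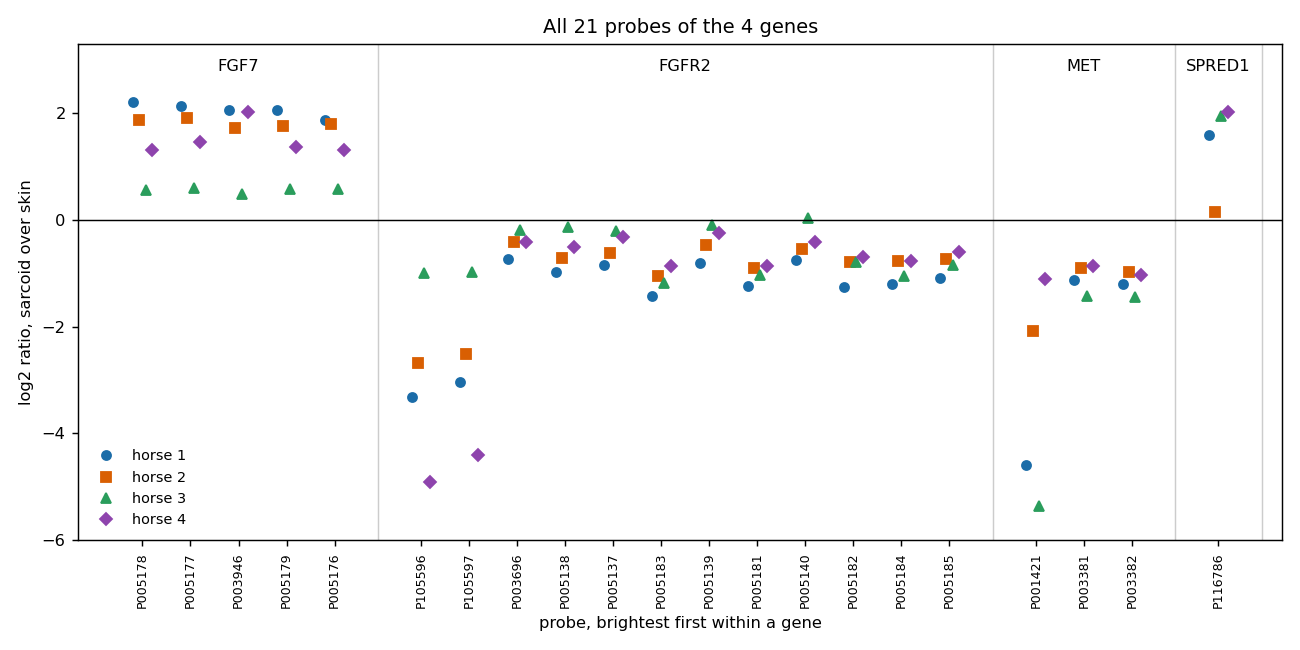
Log2 ratio of sarcoid over skin in each horse (points) for all 21 probes, grouped by gene and ordered by brightness within a gene. The 5 FGF7 probes have means between 1.39 and 1.58, whereas on this scale the bright FGFR2 pair and the bright MET probe lie far below the dim probes of the same genes and spread widely between horses. The gap depends on the scale. On Agilent's processed signals the dim MET probes averaged -3.32 and -3.85, beside -3.71. The FGFR2 run A_69_P005181 to A_69_P005185 averaged -3.14 to -2.91, beside -3.19 and -3.12 for the bright pair. The other dim FGFR2 probes stayed between -1.33 and -0.86.

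SPRED1, the inhibitor of RAS signalling, was measured by a single probe. It read 3769, 1148, 3417 and 4032 in the sarcoids of horses 1 to 4, against 1252, 1035, 885 and 987 in their skin. Sarcoids 1, 3 and 4 stood together well above every skin, whereas the sarcoid of horse 2 lay below the skin of horse 1, so that the groups overlapped. The log2 ratios were 1.59, 0.15, 1.95 and 2.03, a mean of 1.43 ± 0.87 (SD, n = 4), or 2.69-fold. Without horse 2 the mean was 1.86. Horse 2 turned to -0.26 when arrays were centred on their median in place of loess. With the background model fitted to all spots, horse 2 was at 0.06 and horse 3 at 1.18. Without any normalization horse 2 was at -0.70 and the mean was 0.81. The skins were alike, with a range of 1.41-fold against 3.51-fold among the sarcoids.

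The 4 genes are listed here by horse, by the brightest probe of each gene and from 1 array per horse. Horse 1 had FGF7 at its highest ratio with both receptors much reduced. In horse 2 SPRED1 was near its skin, and FGFR2 and MET were 6.40-fold and 4.24-fold lower in the sarcoid. In horse 3 FGF7 and FGFR2 were both nearest to skin while MET was lowest, and in horse 4 MET was nearest to skin while FGFR2 was lowest. With the background model fitted to all spots, horse 1 was lowest for MET (-4.58). With the mean over all probes, horse 1 was lowest for FGFR2 (-1.39).

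Few other genes of these pathways carry a name on this array, and 8 lists were used, of which 16 members besides the 4 genes were measured. Of these 16, 2 passed as higher in sarcoid, 4 as lower and 10 did not pass, with a median log2 ratio of -0.16, against 0.00348 over all targets and against the 5.85% and 9.9% of all targets called upwards and downwards. None of the 6 calls remained when the background model was fitted to all spots, with limma adjusted p values of 0.149 for SDC2, 0.265 for CSF1R, 0.342 for BDNF, 0.213 for DUSP2, 0.115 for FOS and 0.087 for FOSL2. Most calls on the whole array were lost as well. Of all 19604 targets 93 were then higher and 147 lower, against 1146 and 1941 as reported.

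Among ligands, FGF2, which acts on mesenchymal FGF receptors, read 1308, 1576, 1251 and 721 in the sarcoids of horses 1 to 4, against 1155, 1344, 1429 and 542 in their skin. The tissues overlapped, and its log2 ratio was 0.16 ± 0.25 (SD, n = 4; limma adjusted p = 0.501). BDNF, a ligand of the neurotrophin receptor NTRK2, fell by 0.92 ± 0.49 on the log2 scale (limma adjusted p = 0.0414), from dim spots that were well above background in 2 of 4 sarcoids. Without horses 1 to 4 in turn its limma adjusted p was 0.0518, 0.129, 0.0841 and 0.103. The other 4 measured ligands of receptor tyrosine kinases did not pass.

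Among receptors and co-receptors, SDC2, a heparan sulfate proteoglycan that presents FGFs, read 14439, 13489, 12831 and 19662 in the sarcoids, against 6440, 8129, 9425 and 5524 in skin. The tissues did not overlap, and the log2 ratio was 1.04 ± 0.60 (SD, n = 4; limma adjusted p = 0.0467). Its call was lost with any horse left out, with a limma adjusted p of 0.159, 0.1, 0.0569 and 0.0775 without horses 1 to 4, and its 4 probes ranged from 0.50 to 1.04. CSF1R, the receptor of macrophage growth factors, rose by 1.24 ± 0.51 (limma adjusted p = 0.0199), and did not pass without horse 2 (0.0674) or horse 3 (0.0502).

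In the MET axis, the adaptor GAB1, which docks on activated MET, was at -0.48 ± 0.57 (SD, n = 4; limma adjusted p = 0.233). PLAUR, the receptor of urokinase, an enzyme that can activate hepatocyte growth factor, was at 0.41 ± 1.70 (limma adjusted p = 0.716), with 2.58 in horse 1 and -1.57 in horse 4. GRB2, the adaptor that links both receptors to RAS, was at 0.06 ± 0.24 (limma adjusted p = 0.809).

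Downstream, 1 of the 2 feedback inhibitors measured besides SPRED1 passed, and it was lower. DUSP2, a phosphatase that inactivates MAP kinases, fell by 1.29 ± 0.30 on the log2 scale (SD, n = 4; limma adjusted p = 0.0061), with ratios of -1.64, -1.39, -1.21 and -0.93. SOCS3, an inhibitor of cytokine signalling, was at -0.07 ± 0.11 (limma adjusted p = 0.729). Both measured transcription factors at the end of the route were lower. FOS read 706, 7165, 1341 and 25733 in the sarcoids of horses 1 to 4, against 3109, 80374, 57113 and 66915 in their skin, and fell by 3.10 ± 1.77 (limma adjusted p = 0.0356). FOS was lowest in the sarcoid of horse 1, and in horse 1 the skin was low too. FOSL2, a relative of FOS, fell by 1.30 ± 0.56 (limma adjusted p = 0.0212). Without horses 1 and 2 the limma adjusted p of FOS was 0.0876 and 0.112, and without horses 1, 3 and 4 that of FOSL2 was 0.0897, 0.0593 and 0.052.

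**Figure D4:**
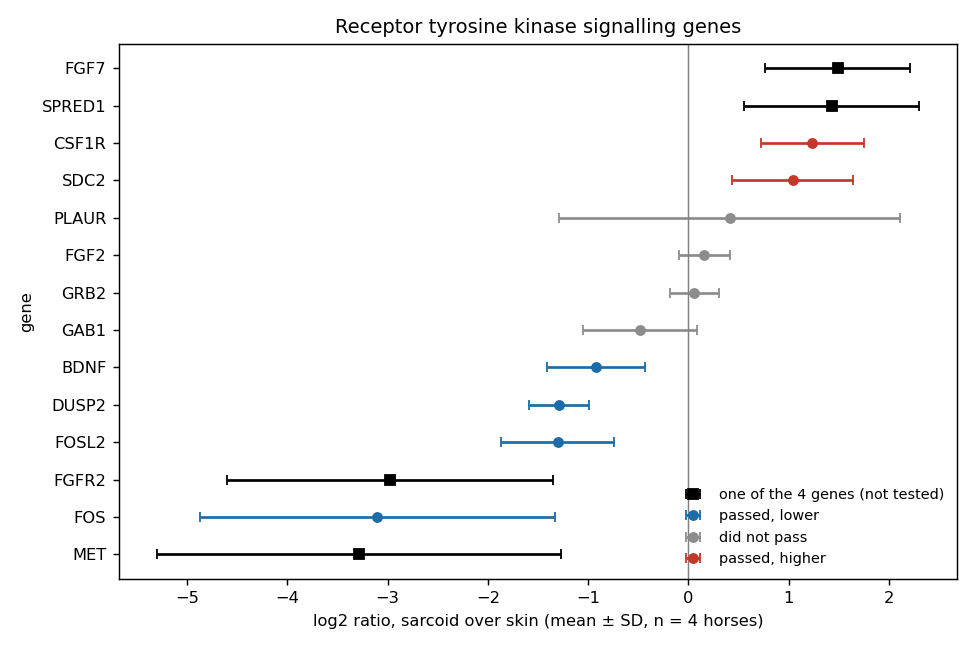
Mean log2 ratio of sarcoid over skin ± SD over 4 horses for the 4 genes (black squares, not tested) and the other named genes of their pathways (circles, coloured by the limma call at an adjusted p under 0.05). FGF7, SPRED1, CSF1R and SDC2 lie on the right, GRB2 and FGF2 near 0, and MET, FOS and FGFR2 on the far left, with wide bars, as PLAUR has near the middle.

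Among 787 genes with a symbol and a value in all 4 horses, those whose 4 log2 ratios came nearest to those of each gene were found by the root mean square difference. Among those nearest to FGF7 were FTL (ferritin light chain) at 0.17 and IFI27 (an interferon-induced gene) at 0.38. FTL had 1.97, 1.84, 0.74 and 1.19 in horses 1 to 4. Nearest to SPRED1 were TPC3 (a cation channel) at 0.35, CDH13 (T-cadherin) at 0.50 and NME2 (a nucleoside diphosphate kinase) at 0.52, and CDH13 had 2.52, 0.30, 1.80 and 1.74, low in horse 2 like SPRED1.

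The genes nearest to the receptors lay at larger differences. The measure is not scaled by the spread between horses, which was wider for FGFR2 and MET than for FGF7 and SPRED1. Nearest to FGFR2 were CRISP3 (a secreted cysteine-rich protein) at 0.71, LTF (an antimicrobial protein of gland secretions) at 1.02 and AOX4 (an aldehyde oxidase) at 1.1. CRISP3 had -3.60, -3.10, -2.22 and -4.43, with horse 3 least and horse 4 most reduced, as for FGFR2. Nearest to MET were TYRP1 (a melanin enzyme) at 1.17, and the cytochromes P450 CYP2A13 at 1.30 and CYP3A89 at 1.31. TYRP1 and CYP2A13 were not well above background in any sarcoid and were at least 6.09-fold and at least 7.69-fold lower there, so the nearness to MET rests in part on values at background.

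**Figure D5:**
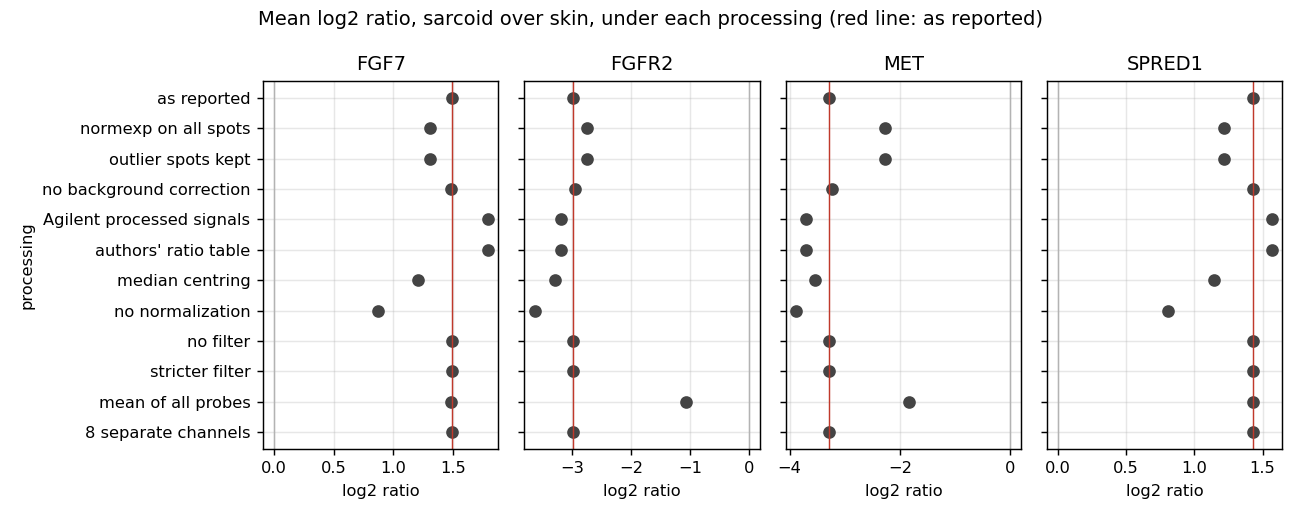
Mean log2 ratio of sarcoid over skin of each gene (points) under the processing reported here (red line) and 11 alternatives, with 0 marked in grey. No alternative crosses 0; averaging all probes brings FGFR2 to -1.07 and MET to -1.84, and leaving out normalization brings FGF7 to 0.87 and SPRED1 to 0.81.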

How the data were processed

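Each of the 4 deposited scanner files, 1 per horse, gives linear intensity values of every spot and of its local background for both dyes, and spot flags of 0 or 1 among other columns, per the file headers. The submitters' processing notes name Agilent Feature Extraction 11.5.1.1. Its processed intensity has background subtracted and dyes normalized, as the headers of the deposited files record. The deposited log10 ratio is Cy5 (skin) over Cy3 (sarcoid), and the authors' value table holds the same ratio, with medians of 0, -0.00262, -0.0118 and 0 for horses 1 to 4.

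Spots with any outlier mark other than that of the background population were dropped. Median signals were then corrected with normexp (offset 50) and normalized by loess within arrays in limma 3.58.1 under R 4.3.3, and levels per channel were scaled between arrays (Aquantile). Dropping those spots before the normexp fit follows earlier work on these data that had seen its effect. A probe was kept if 3 or more of the 4 arrays had it well above background in the same channel, and the brightest probe stands for a target. Of 3437 probes with a RefSeq accession 2332 (67.8%) matched the horse RefSeq gene table (assembly TB-T2T), whose coordinates are left out because the probes were designed on a different build. The log2 ratios of all 19604 targets were tested two-sided against 0 (lmFit, eBayes; Benjamini-Hochberg over all), with the script checked on simulated data. The genes, lists and tests were chosen with earlier results of these data known.

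Named are the 4 genes, the 3 nearest to each by root mean square difference, and from each list its passing members by size of the mean log2 ratio (at most 4, for cell types 2) or, where none passed, its 2 brightest. One gene that this rule names is not reported here. SOCS3, CD14, PECAM1, VWF, KRT15, CA12, VIM, DCN, SPARC, COL5A2 and TBX15 were named after their values were seen. The number of arrays limits the precision. The 4 arrays share 1 slide and 1 scan, so neither could be tested as a batch. Alternatives covered background, outlier spots, normalization, filter, probe choice, pairing and each horse left out.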

Additional observations from a re-analysis of the deposited data

Results flagged for a closer look

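Of 63 sets of 4 values examined (the ratio, the sarcoid level and the skin level of 21 probes), 2 had a value far from the other 3, and chance alone gives about 1 in 20 such sets. The sarcoid of horse 2 stood at a log2 level of 10.17 for SPRED1, with the other 3 sarcoids between 11.74 and 11.98. The skin of horse 4 stood at 11.73 for the FGFR2 probe A_69_P105597, with the other 3 skins between 11.11 and 11.20.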

How the results depend on the processing

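The mean log2 ratios of FGF7, FGFR2, MET and SPRED1 kept their direction under all 15 alternatives. With each horse left out they ranged from 1.25 to 1.80, from -3.64 to -2.33, from -4.01 to -2.60 and from 1.23 to 1.86. The mean over all probes moved FGFR2 to -1.07. With normexp fitted to all spots, 93 targets were higher and 147 lower; with outlier spots kept, 94 and 147. Both left 0 pathway members higher, 0 lower, and 3 cell type markers higher and 2 lower, against 9 and 7. Agilent's processed signals put 1888 targets higher and the authors' deposited table of log10 ratios put 1884 higher (48.2% of calls in both, against 37.1% as reported); median centring put 614 (18.6%) and no normalization 97, with 2968 lower (3.16%). No normalization shifted the median of all targets to -0.43. Pathway members called higher were 0 with median centring and with no normalization, and 1 without the filter and with the mean of all probes; those called lower were 2 without the filter. Without the replicate block, the 8 channels as separate samples, 931 targets were higher and 1790 lower, and 1 pathway member was lower; the pairing comes from the animal labels. With each horse left out, 389 to 820 targets were higher and 1077 to 1415 lower, and 0 to 1 pathway members higher and 1 to 2 lower. FGF2 and GRB2 turned to -0.14 and -0.26 with median centring and to -0.48 and -0.59 with no normalization, and PLAUR to -0.24 with no normalization. With a horse left out PLAUR ranged from -0.31 (without horse 1) to 1.08, and TAGLN, a smooth muscle gene at -0.10, from -0.45 to 0.15 (without horse 3; 0.07 without horse 4). The causes were not tested. Signal over background limits the dim probes of FGFR2 and MET.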
